A study of Brassica napus with 12 samples.

Results

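The comparison described here is that of root with mature leaf in silicon-supplied Brassica napus (oilseed rape), over 3 root and 3 leaf libraries of the 12 in the series. All libraries came from wild-type plants of the variety Citizzen grown in nutrient solution. The groups Root_Si and MatureLeaf_Si received silicon (Si) at 1.7 mM, given as sodium metasilicate, for 1 week, and the groups Root_NoSi and MatureLeaf_NoSi received 3.4 mM NaCl over the same week as a sodium-matched control, again with 3 libraries each. The leaf libraries carry the tissue tag aerial, and the protocol speaks of shoots frozen apart from roots, so that how much tissue other than mature leaf they held is not given. The number of plants behind a library is not stated, nor whether equally numbered root and leaf libraries share their plants. The series speaks of biological replicates without saying what each was, so p-values measure the spread between these libraries.

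Roots take up water and ions and carry no photosynthesis, while mature leaves are the main site of carbon fixation, and a limited set of abundant photosynthetic transcripts is known to fill much of the messenger RNA of a leaf. B. napus is an allotetraploid that joins an A genome from B. rapa and a C genome from B. oleracea, so most genes have an A and a C copy. In plant genomes, genes with similar expression can lie side by side, as tandem copies of a gene or as groups of unrelated genes. The gene identifiers of this series name a chromosome (A01 to A10, C01 to C09) and a running number, which allows neighbours to be compared. They carry no gene name, so roles are not given for them, and neither the organ labels nor the likeness of neighbouring genes could be checked against marker genes or sequences.

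Of 52962 identifiers, 44495 had enough reads to be tested, and 39915 of these lay on the 19 named chromosomes. Gene counts ran from 16684929 to 19330076 per root library and from 17334063 to 21307409 per leaf library. The planting date in the labels is 12 February for every library without Si and for MatureLeaf_Si replicate 3, and 21 March for the other 5 libraries with Si, so that in root the labelled date and Si cannot be told apart. The harvest date is 28 March for every library, and what the planting date marks is not stated. Labelled time from planting to harvest thus differs within the leaf group with Si, and between most libraries with and without Si. MatureLeaf_Si replicate 1 stood apart from the other leaf libraries with Si in a set of neighbouring leaf genes that is described with the runs, and MatureLeaf_NoSi replicate 2 was the smallest library, at 14429867 gene counts, with 15.6% of its reads unmapped. 

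Most measured genes differed between root and leaf. By edgeR's quasi-likelihood test at a Benjamini-Hochberg adjusted p under 0.05, 31652 of the 44495 genes (71.1%) were called, 15923 (35.8%) higher in root and 15729 (35.4%) higher in leaf. An unadjusted p under 0.05 was reached by 32601 genes. The even split rested on the scaling of the libraries. With TMM factors, which set the bulk of genes level between libraries, 50.3% of the called genes were higher in root and the median log2 difference of all genes (root over leaf) was 0.02. With library totals alone, 74.1% were higher in root (26786 against 9345) and the median was 0.73. The factors themselves ran from 1.26 to 1.30 in root and from 0.738 to 0.812 in leaf. All counts are shares of a library, so that in these bulk samples fewer cells of a type and less RNA per cell cannot be told apart.

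The differences were large in both directions, with a longer tail in leaf. The median size among called genes was 1.52 on the log2 scale for each organ, with a median standard error of 0.19. The 90th percentile was 5.10 among genes higher in root and 6.81 among genes higher in leaf. A log2 difference of 8 or more was fitted for 500 genes higher in root and 1116 higher in leaf, while differences of 2 to 4 were more frequent in root (3724 against 3098). Fitted sizes of genes with few or no reads in an organ depend on the prior count of the fit. Counted without a fit, 327 genes with at least 1 CPM (a read count scaled to the library's size) in root had no read in any leaf library, and 281 genes with at least 1 CPM in leaf had none in any root library. At 10 CPM these numbers were 38 for root and 76 for leaf. Tested against a log2 difference of 1 in place of 0 (edgeR's glmTreat), 8634 genes passed as higher in root and 8682 as higher in leaf.

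**Figure D1:**
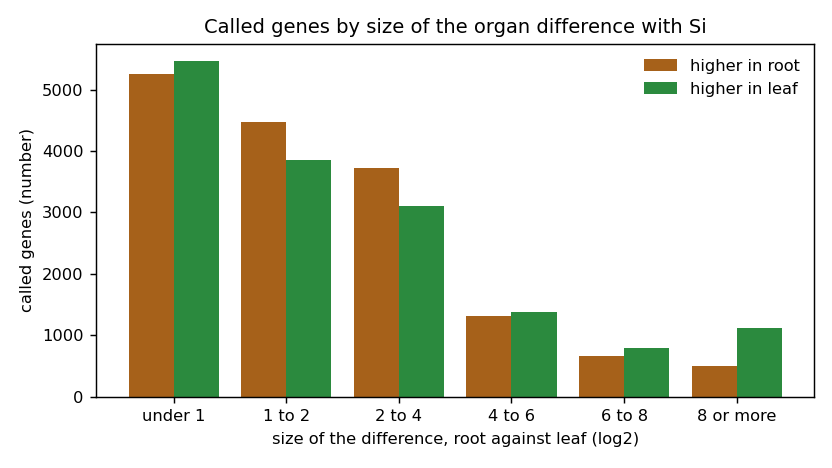
Number of genes called by edgeR (adjusted p under 0.05) in each class of absolute log2 difference between root and leaf with Si. Brown bars are genes higher in root and green bars genes higher in leaf; leaf has the larger number in the last class (1116 against 500), and root in the class from 2 to 4 (3724 against 3098).

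A gene was named root-preferring or leaf-preferring when it was called and differed at least 4-fold (a log2 difference of 2). This gave 6208 root-preferring genes (14.0% of those tested) and 6399 leaf-preferring genes (14.4%). For 12603 of the 12607 the 3 libraries of an organ lay all above or all below those of the other, which the choice of these genes largely fixes. Leaf preference was most frequent among the most abundant genes. Among 1368 genes with a mean of at least 100 CPM over the 6 libraries, 51.1% were leaf-preferring and 5.99% root-preferring. Between 10 and 100 CPM (21316 genes) the shares were 14.7% and 9.30%. From 1 to 10 CPM (19576 genes) root-preferring genes were the more frequent, with 17.3% against 11.7%. Below 1 CPM (2235 genes) they made up 33.6% against 12.3%. The read filter let a gene with a low mean be tested when enough reads lay in 1 organ alone. CPM here also carried the TMM factors, which lower root levels and raise leaf levels. How far the shares at low abundance follow from the filter and the scaling was not tested.

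The weight of leaf-preferring genes among abundant genes showed in the reads too. Leaf-preferring genes took 51.1%, 49.0% and 48.9% of the gene counts in leaf replicates 1, 2 and 3, and from 3.59% to 3.69% in the root libraries. Root-preferring genes took from 19.4% to 19.7% in root and from 1.19% to 1.21% in leaf. Thus similar numbers of genes, as chosen with TMM factors, accounted for very different parts of each organ's reads. Without scaling factors the numbers were not similar, with 9077 root-preferring and 4934 leaf-preferring genes. Read shares were not taken for those sets. All of the 10 most counted genes in leaf were leaf-preferring, and 4 of the 10 in root were root-preferring. Among the 100 most counted, 96 in leaf were leaf-preferring and 44 in root were root-preferring, and the lists shared 6 genes. These ranks are by reads per gene, with no correction for gene length.

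Root libraries were the more even. The 10 most counted genes took 1.28 ± 0.105% of gene counts in root and 3.76 ± 0.571% in leaf (SD, n = 3 each), and the 100 most counted 6.16 ± 0.160% and 14.4 ± 1.64%. With CPM taken here on library totals, without TMM factors, more genes reached 1 CPM in root, 40680 ± 166 against 37989 ± 342 (SD, n = 3). The same count on the TMM-scaled CPM used for gene levels was not made, so this difference may depend on the scaling. Reads outside annotated genes made up 14.2 ± 0.825% in root and 8.66 ± 0.755% in leaf, and unmapped reads 8.62 ± 0.772% and 5.46 ± 0.145% (SD, n = 3). In each of these measures the organs did not overlap (exact permutation test, two-sided, p = 0.1, below which 3 against 3 libraries cannot go, and 0.157 after Benjamini-Hochberg adjustment over 11 measures). The C genome took 50.9 ± 0.449% of the counts in root and 50.6 ± 0.365% in leaf (exact permutation p = 0.5, adjusted 0.55; n = 3 each), where the ranges overlapped. Leaf libraries varied more among themselves, with a median coefficient of variation of 11.6% against 8.99% in root over 22684 genes with at least 10 CPM.

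The ends of the range were marked by the 2 genes in each direction with the largest fitted differences among called genes with at least 10 CPM in the higher organ. BnaC09g47070D had 1732, 2054 and 1843 reads in the root libraries and 0 in each leaf library. Its root level was 81.7 ± 9.61 CPM (SD, n = 3), at least 1258-fold above the leaf limit that 3 reads over the 3 libraries would give (fitted log2 difference 13.62, SE 0.35; edgeR adjusted p = 8.68e-09). BnaA03g46070D had 945, 638 and 564 root reads and no leaf read, 30.8 ± 6.87 CPM and at least 474-fold (log2 difference 12.21, SE 0.50; edgeR adjusted p = 1.32e-07). On the leaf side, BnaA02g27880D had 668, 1304 and 1266 reads in leaf and none in root, 68.8 ± 14.4 CPM and at least 1585-fold (log2 difference −13.37, SE 0.44; edgeR adjusted p = 4.42e-08). BnaC04g56850D had 787, 1146 and 992 leaf reads and none in root, 63.2 ± 2.70 CPM and at least 1455-fold (log2 difference −13.25, SE 0.28; edgeR adjusted p = 3.54e-09). In the no-Si libraries all of them kept their organ, although none was again free of reads in the other. There BnaC09g47070D had 1705, 1846 and 1425 reads in root and 5, 4 and 1 in leaf, and BnaA02g27880D had 1340, 792 and 790 in leaf and 2, 3 and 3 in root.

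The RefSeq gene table gave a synonym for a pair of the identifiers. BnaA02g32290D (KCP1) stood at 16.1 ± 1.5 CPM in root and 21.3 ± 0.996 CPM in leaf (SD, n = 3; log2 difference −0.40, SE 0.12; edgeR adjusted p = 0.0107), and without scaling factors the direction turned to 0.31. BnaCnng15100D (TR1) stood at 28.9 ± 4.96 CPM in root and 34.0 ± 0.627 CPM in leaf and did not pass (log2 difference −0.23; edgeR adjusted p = 0.138), with 0.48 in the opposite direction without scaling factors and a call at −0.38 without root replicate 3. Neither was organ-preferring.

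Organ preference was spread over both genomes. Among 20027 tested A genes 14.5% were root-preferring and 14.5% leaf-preferring, and among 19888 C genes 13.2% and 14.1%. On the 19 chromosomes together, 5523 genes were root-preferring (13.8%) and 5718 leaf-preferring (14.3%), and these shares are the background for all that follows. By chromosome the root-preferring share ran from 12.3% on C01 to 17.2% on A02, and the leaf-preferring share from 13.4% on C03 to 16.8% on A02. A02 thus stood at the top for both, with 292 root-preferring and 286 leaf-preferring genes among 1700 tested. In the no-Si libraries its shares were 16.1% and 16.9%. C06 leaned to leaf (15.9% leaf-preferring, 12.4% root-preferring), and A03 to root (15.4% root-preferring, 13.9% leaf-preferring). Cut into 10 equal parts by gene order, chromosomes had between 12.96% and 15.5% root-preferring genes in a part, highest in the last, and between 13.4% and 14.9% leaf-preferring genes.

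Neighbouring genes shared an organ preference somewhat more often than genes at large, and more so in leaf. The next tested gene after a leaf-preferring gene was leaf-preferring in 1034 of 5717 cases (18.1%, against the background of 14.3%). For root-preferring genes it was root-preferring in 892 of 5519 cases (16.2%, against 13.8%). The next gene had the opposite preference less often than the background, in 13.1% of cases after a root-preferring gene (background 14.3%) and in 12.8% after a leaf-preferring one (background 13.8%). The excess was short. At the second next tested gene the same preference was found in 15.2% (root) and 15.6% (leaf), and at the third in 13.8% and 14.9%. For leaf it was highest where identifiers followed each other directly, at 19.3% of 2961 pairs, against 15.1% of 377 pairs that lay 6 or more places apart. After any tested gene, the next gene at these distances was leaf-preferring in 14.3% and 13.5% of cases. For root the directly adjacent pairs had 16.2% and those with 1 missing or untested identifier between them 18.2%. After any tested gene the root-preferring share at these distances was 13.3% and 14.8%, so it rose as well. These shares are a description of neighbours along chromosomes, and no test was made of them.

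**Figure D2:**
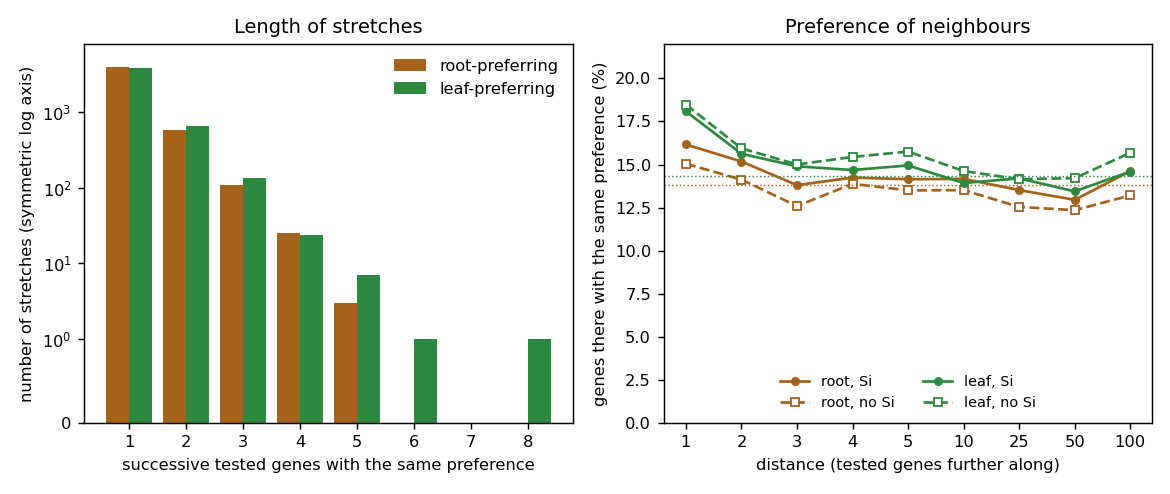
Left, number of stretches of successive tested genes with the same preference, by length, on a symmetric log axis, for root-preferring (brown) and leaf-preferring (green) genes with Si. Right, percent of genes with the same preference at a given distance in tested genes, for Si (solid) and no-Si libraries (dashed), with the Si background shares dotted; the leaf curve starts at 18.1% and root at 16.2%, and both approach the background within 3 genes.

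Runs, meaning 3 or more successive tested genes with the same preference, were found on every one of the 19 chromosomes for both organs. There were 137 root runs with 442 genes (8.0% of root-preferring genes on the chromosomes) and 168 leaf runs with 550 genes (9.62% of leaf-preferring genes). Most were short: 109 root runs and 135 leaf runs had 3 genes. The longest root runs had 5 genes (3 of them), whereas leaf had 7 runs of 5, 1 of 6 and 1 of 8. Runs in which every gene differed by a log2 of 4 or more numbered 15 in root and 36 in leaf. The number of runs varied between chromosomes, and extremes among the 19 are given here without a test. A09 held 18 root runs and 11 leaf runs among 2834 tested genes (15.1% root-preferring, 14.1% leaf-preferring). C08 held 4 root runs and 15 leaf runs among 2133 (13.5% and 14.0%), and C09 held 1 root run and 9 leaf runs among 2263 (12.8% and 14.4%). Only part of the annotated numbering is in hand: 58% of successive identifiers are 1 place apart, identifiers in between were not analysed, and 38 root and 46 leaf runs held consecutive places throughout.

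Most runs were present again in the 6 libraries without Si, which had no part in choosing them. In those libraries 5766 of 44167 tested genes were root-preferring (13.1%) and 6539 leaf-preferring (14.8%). Every member was again root-preferring in 91 of the 137 root runs (66.4%), and again leaf-preferring in 133 of the 168 leaf runs (79.2%). Every member was tested and had the same direction in 129 (94.2%) and 150 (89.3%). The other runs held a member that was not tested without Si, and no tested member of a run changed direction. Single genes recurred as well, in a run or not. Of all root-preferring genes with Si 85.4% were root-preferring again, and of all leaf-preferring genes 93.9% were leaf-preferring again. Recurrence was thus not limited to runs, and single genes inside and outside runs were not compared. Runs called in the no-Si libraries on their own numbered 114 in root and 170 in leaf. Of the genes in root runs, 302 were shared between the treatments (68.3% of those with Si, 82.3% of those without), and of the genes in leaf runs 457 (83.1% and 81.3%). The next neighbour shared the preference in 15.04% of cases for root (background 12.97%) and in 18.5% for leaf (background 14.7%) without Si.

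The longest run was a leaf run of 8 genes on C02, from BnaC02g07740D to BnaC02g07870D, with no other tested gene between them. Its length rested on BnaC02g07810D, which kept its direction but missed the threshold without root replicate 1, 2 or 3 or leaf replicate 3 (edgeR adjusted p 0.0637, 0.0733, 0.0678 and 0.0991). The longest leaf run then had 6 genes. Root reads were all but missing: 5 members had none in any root library and the other 3 had 1 read each. BnaC02g07740D had 76, 379 and 396 reads in leaf replicates 1, 2 and 3, and BnaC02g07750D had 72, 418 and 487. BnaC02g07780D had 42, 112 and 120 leaf reads, and BnaC02g07790D had 13, 106 and 189. In each of these genes leaf replicate 1 was the lowest. BnaC02g07810D had 13, 252 and 199 leaf reads, and BnaC02g07830D had 38, 262 and 262. BnaC02g07850D had 46, 214 and 245, and BnaC02g07870D had 19, 118 and 120. All 8 genes moved together across the leaf libraries as well as between the organs.

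Mean leaf levels of these members ran from 5.26 ± 3.28 to 20.0 ± 12.8 CPM (SD, n = 3). The median fitted log2 difference was −9.93, or −8.08 with the genes at 0 in root set to their limit. Single members without root reads were at least 121-fold (BnaC02g07870D) to at least 403-fold (BnaC02g07740D) higher in leaf. Adjusted p by edgeR ran from 1.18e-06 to 0.0360 (BnaC02g07810D), and the highest was 1.06e-05 without leaf replicate 1. In the no-Si libraries all 8 were leaf-preferring again (median log2 difference −8.27), with edgeR adjusted p from 1.38e-06 to 1.71e-04. Among the 10 tested genes on each side the median was 0.09, with 6 root-preferring and 4 leaf-preferring genes.

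**Figure D3:**
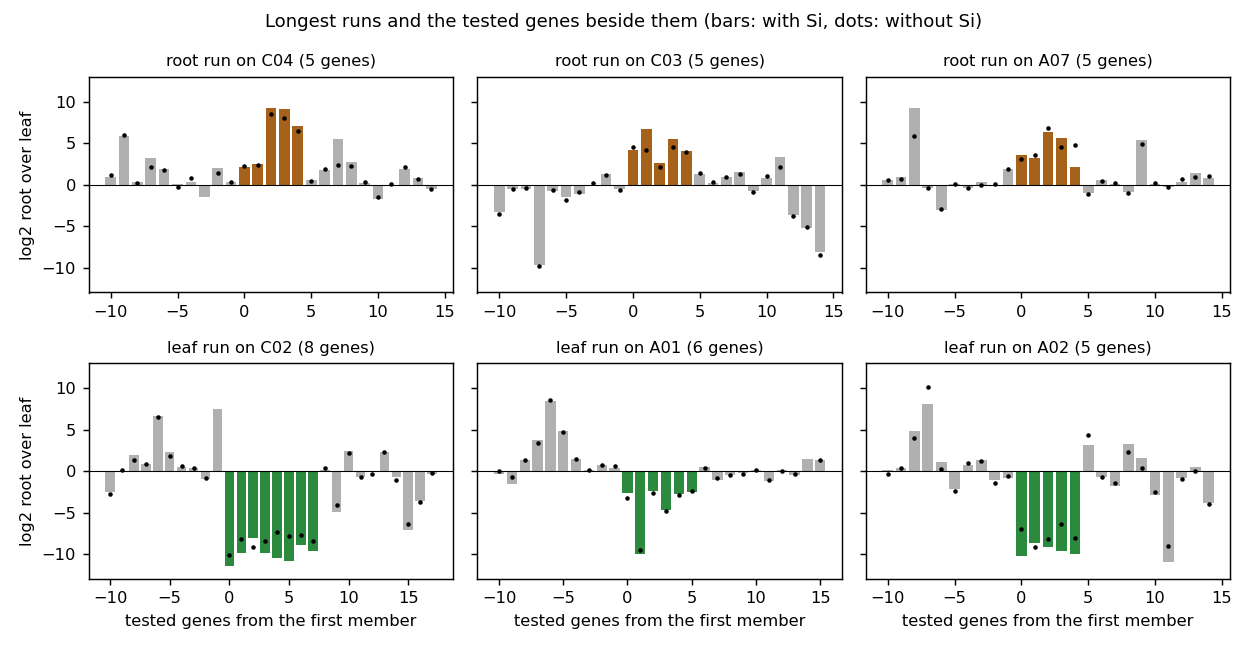
Log2 difference of root over leaf for the 3 longest root runs (upper row) and leaf runs (lower row; the A02 run was chosen from 7 of equal length by its median difference) and the 10 tested genes on each side; the horizontal axis counts tested genes from the first member. Coloured bars are run members, grey bars flanking genes, and dots the same genes in the no-Si libraries where tested; the C02 run has a median of −9.93 beside flanking genes with a median of 0.09.

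The second leaf run was of another kind. Its 6 genes, from BnaA01g12010D to BnaA01g12090D, were well expressed in root too, except for 1. BnaA01g12040D had 473, 497 and 479 reads in root and 1645, 1667 and 1585 in leaf, or 21.0 ± 1.46 against 107.9 ± 18.0 CPM (SD, n = 3; 5.13-fold). BnaA01g12060D had 64, 54 and 64 root reads and 1039, 1062 and 996 leaf reads (25.8-fold). BnaA01g12020D was nearly restricted to leaf, with 1, 0 and 3 root reads and 909, 1285 and 959 leaf reads. No member had a root library that reached a leaf library in CPM, which the choice of organ-preferring genes largely fixes. The other members were 5.68-fold to 6.90-fold higher in leaf. The median log2 difference of the run was −2.70 with Si and −3.06 without, and without scaling factors it was −1.98. On C01, the run from BnaC01g12600D to BnaC01g12690D had 5 genes with a median of −3.24 with Si and −3.41 without. It is set beside the A01 run because of its similar number and chromosome, after its values were seen. Its last member, BnaC01g12690D, had 9, 14 and 12 root reads and 954, 1530 and 1212 leaf reads, 156-fold, while the other members were 6.33-fold to 10.7-fold higher in leaf. Whether the A01 and C01 members are copies of each other was not tested, since no sequences were at hand.

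Of 7 leaf runs with 5 genes the one with the largest median difference lay on A02, from BnaA02g03880D to BnaA02g03980D, with a median log2 difference of −9.63 (−7.45 with genes at 0 set to their limit; −8.12 without Si). BnaA02g03880D had 27, 180 and 165 leaf reads and none in root, and BnaA02g03890D had 23, 212 and 178 leaf reads with 1 read in root. The last member, BnaA02g03980D, was much more abundant and did not follow this pattern, with 1731, 1998 and 1995 leaf reads against 1, 6 and 1 in root. The other 4 members again had their lowest count in leaf replicate 1.

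That library was therefore compared with the other leaf libraries over all 6368 leaf-preferring genes with at least 1 CPM in leaf. In leaf replicate 1, 34 genes lay at a log2 of −2 or lower against the other leaf libraries with Si, while 4 did so in replicate 2 and 3 in replicate 3. They were concentrated in runs: 19 of the 34 (55.9%) were members of 7 leaf runs, where 547 of the 6368 (8.59%) were run members. Of the 34, 23 lay within 5 tested genes of another. These genes were chosen by their values in this library, so the shares describe them and test nothing.

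Beside the C02 and A02 runs the low genes lay in runs on A03, A10 and C09. The A03 run, BnaA03g06810D to BnaA03g06850D, had 21, 184 and 134 leaf reads in its first member and at most 1 read in a root library in any member. The A10 run, BnaA10g16780D to BnaA10g16800D, had 28, 122 and 122 leaf reads in its first member. The C09 run, BnaC09g39790D to BnaC09g39850D, had 22, 123 and 120. A further group on C03 was no run by the rule but was low in the same library: BnaC03g08730D had 22, 173 and 152 leaf reads, BnaC03g08750D 20, 100 and 130, and BnaC03g08780D 20, 176 and 166. A pair on C07 was low there too, BnaC07g47550D with 18, 161 and 97 leaf reads and BnaC07g47570D with 45, 276 and 204. So was BnaC05g22520D on C05, with 31, 189 and 232. Not all low genes are named here. Stretches of A02, A03 and A10, and of the C chromosomes that correspond to them, are known to descend from the same ancestral block in the genome triplication of Brassica. No sequence or name was at hand to compare the genes of these runs. Whether they, or the low genes on C03, C05 and C07, belong to such a block was not tested. In these 5 runs every member except BnaA02g03980D had fewer reads in each no-Si leaf library than in leaf replicates 2 and 3 with Si. BnaC02g07740D, for example, had 121, 68 and 140 reads in leaf without Si and BnaA03g06810D had 36, 23 and 32. Some members had fewer reads in leaf replicate 1 than in any leaf library without Si, such as BnaC02g07810D with 13 against 75, 31 and 52.

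**Figure D4:**
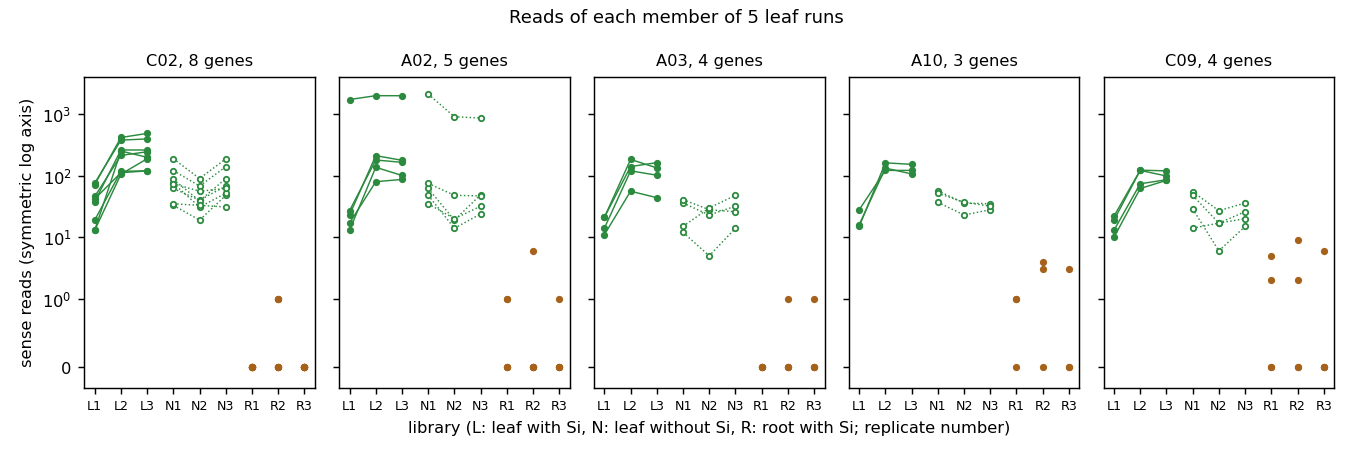
Sense reads of every member of 5 leaf runs (C02, A02, A03, A10 and C09) in the 3 leaf libraries with Si (L1 to L3, filled green), the 3 leaf libraries without Si (N1 to N3, open green) and the 3 root libraries with Si (R1 to R3, brown), on a symmetric log axis. Every member except BnaA02g03980D, the top line on A02, has fewer reads in L1 and N1 to N3 than in L2 and L3; BnaC02g07740D, for example, has 76 in L1, 379 and 396 in L2 and L3, and 121, 68 and 140 in N1 to N3.

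Without leaf replicate 1 all members of the 7 runs were leaf-preferring. This follows from how they were picked, since the lowest leaf library was removed. The highest edgeR adjusted p in the run went from 0.00478 to 2.96e-06 on A02, from 0.00434 to 1.16e-05 on A03, from 0.00107 to 1.43e-06 on A10, and from 0.00169 to 7.13e-06 on C09. Over the libraries of each organ, 7 of 165 leaf runs and 0 of 116 root runs with all members at 1 CPM or more had a library whose median lay a log2 of 1 or more from the others. These 7 are not the same set as the 7 runs above. Among them the run from BnaA06g13910D lay at 1.32 in leaf replicate 1 and −1.04 in replicate 2. The run from BnaA02g07840D lay at −1.01 in replicate 2. In the replicates of the root, 0, 10 and 1 root-preferring genes (of 5927) lay at −2 or lower. Leaf replicate 1 shares its planting date label with replicate 2. Leaf libraries without Si were low in these genes too. BnaC02g07740D, for example, stood at 5.94, 21.9 and 24.6 CPM in leaf replicates 1, 2 and 3 with Si. In leaf without Si it stood at 7.70 ± 1.85 CPM (SD, n = 3, scaled apart). Whether replicate 1 or replicates 2 and 3 are the unusual ones, and why they differ, was not tested.

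The 3 longest root runs held 5 genes each and are given in the order of their median log2 difference. The first, on C04 from BnaC04g56540D to BnaC04g56620D, combined moderate and extreme differences. BnaC04g56610D was among the abundant root transcripts, with 19936, 20206 and 19775 reads in root (869.0 ± 49.2 CPM; SD, n = 3) and 38, 27 and 1 in leaf (1.53 ± 1.45 CPM), 567-fold. BnaC04g56600D, next to it, had 2534, 2666 and 2612 root reads and 5, 3 and 0 leaf reads, 603-fold (log2 difference 9.29, SE 0.34; edgeR adjusted p = 5.93e-09). Both were lowest in leaf replicate 3. BnaC04g56620D had 21, 21 and 18 root reads and none in leaf (at least 13.3-fold). The first members, BnaC04g56540D and BnaC04g56560D, were 4.62-fold and 5.58-fold higher in root. The median of the run was 7.07, or 3.74 with the gene at 0 in leaf set to its limit, and 6.48 without Si. The median of its 20 flanking genes was 0.66, and 5 of them were root-preferring and none leaf-preferring. The 20 flanking genes of the C02 leaf run held 6 root-preferring genes beside 4 leaf-preferring ones, so such a count of root-preferring genes is not particular to this run.

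The second root run was the only one of the 3 with consecutive places throughout, from BnaC03g33010D to BnaC03g33050D. BnaC03g33030D had 1251, 1079 and 811 reads in root and 91, 120 and 127 in leaf (6.17-fold), and BnaC03g33050D had 208, 179 and 205 in root and 5, 5 and 13 in leaf (17.3-fold). BnaC03g33040D was the most variable, with 130, 40 and 62 root reads and 0, 1 and 2 in leaf. The median log2 difference was 4.17 with and without Si. Here the flanking genes leaned the other way, with a median of −0.56, 5 leaf-preferring genes and 1 root-preferring gene among 20. The third root run, BnaA07g11040D to BnaA07g11110D on A07, had a median of 3.62 with Si and 4.59 without. BnaA07g11080D in it had 1779, 1039 and 1551 root reads and 11, 12 and 13 leaf reads (80.2-fold), and BnaA07g11070D had 1553, 1242 and 1237 in root and 105, 107 and 67 in leaf (9.41-fold). All 15 members of the 3 root runs were root-preferring again without Si.

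A run that lay in a stretch with large differences between replicates behaved otherwise. In the leaf run from BnaC02g43300D to BnaC02g43420D, shown because of those differences after its values were seen, BnaC02g43300D had 222, 1733 and 1030 leaf reads with Si and 1243, 4 and 659 without. BnaC02g43350D had 2036, 4577 and 2796 leaf reads with Si and 3174, 782 and 3084 without, and in root 239, 457 and 289 with Si and 444, 82 and 263 without. The low library without Si was replicate 2 in both organs. All 5 members were leaf-preferring with Si (median −3.80), though BnaC02g43360D fell under the 4-fold rule without leaf replicate 2 (−1.61) or root replicate 1 (−1.81), and 3 of the 4 tested members were so without Si. Near-identical gene copies share reads, and the counting used here could have split or dropped them, so the values of single members of any run are uncertain to that extent.

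Longer distances were described by blocks. In 787 successive blocks of 50 tested genes the median number of root-preferring genes was 7, with a range of 1 to 15, and the median number of leaf-preferring genes was 7, with a range of 0 to 15. The middle of both distributions lay between 5 and 9. Across blocks the root and leaf numbers had a Pearson r of −0.10 (787 blocks, which share libraries). A gene cannot count for both organs, so in blocks of fixed size some negative correlation is built in. The block with the most root-preferring genes, tied at 15, lay near the end of the A09 numbering (BnaA09g54940D to BnaA09g55700D), with 7 leaf-preferring genes, a median log2 difference of 0.72 over all 50 genes, and 8 genes in root runs. The other, on C03 (BnaC03g33000D to BnaC03g34090D), had 15 root-preferring and 8 leaf-preferring genes and held the C03 root run. A block of A07 (BnaA07g28720D to BnaA07g29530D) had 14 root-preferring and 11 leaf-preferring genes.

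The leaf-richest blocks had 15 leaf-preferring genes each. On A02 (BnaA02g28410D to BnaA02g29770D) and A07 (BnaA07g23930D to BnaA07g24940D) they stood beside 7 root-preferring genes, with medians of −0.36 and −0.32 over all genes of the block. At the start of the A04 numbering (BnaA04g00030D to BnaA04g00910D) 15 leaf-preferring genes stood beside 11 root-preferring genes, with a median of 0.08. Only 1 block had no leaf-preferring gene. The 2 treatments gave similar block numbers, in separate libraries: Pearson r over the 787 blocks was 0.90 for root and 0.93 for leaf, and in the 6 blocks named the no-Si numbers were 12, 12 and 12 root-preferring and 15, 14 and 14 leaf-preferring genes.

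**Figure D5:**
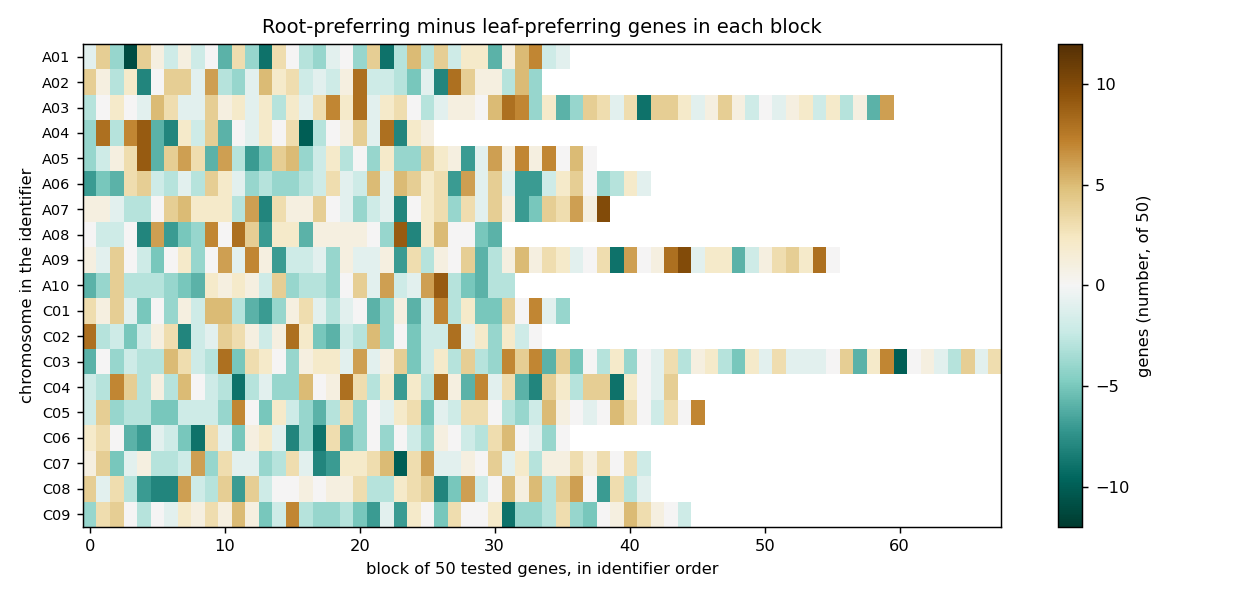
Difference between the numbers of root-preferring and leaf-preferring genes in successive blocks of 50 tested genes along each chromosome named in the identifiers, brown where root-preferring genes are in excess and green where leaf-preferring genes are. Blocks of either colour are scattered along all 19 chromosomes; the A09 block with 15 root-preferring and 7 leaf-preferring genes is near the right end of its row.

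At a finer scale, windows of 10 tested genes with at least 6 of the same preference were joined where they overlapped. This measure was added after the data were seen. It gave 36 leaf clusters with 244 leaf-preferring genes and 18 root clusters with 112 root-preferring genes. The leaf clusters with the most members had 9, on A07 (BnaA07g14380D to BnaA07g14540D, 14 tested genes), C02 (the run above, extended to BnaC02g07910D, 10 tested genes) and C04 (BnaC04g13890D to BnaC04g14340D, 15 tested genes). In all 3 every member was leaf-preferring again without Si. The largest root cluster, on C04 from BnaC04g56500D to BnaC04g56710D, had 8 root-preferring genes among 11 and contained the longest root run. It had 7 without Si.

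Whether the organ difference itself differed with Si was tested over all 12 libraries. No gene passed for the interaction of organ and Si among 45222 tested (0.00%; edgeR, smallest adjusted p 0.958, and 1823 genes with an unadjusted p under 0.05). A p that misses the threshold does not show that the differences were equal. Of the 6208 root-preferring genes, 6028 were tested without Si and 6024 of these had the same direction, as had 6258 of 6259 leaf-preferring genes. The 4-fold rule was met in both treatments by 5299 root-preferring genes (85.4% of those with Si, 91.9% of those without) and by 6008 leaf-preferring genes (93.9% and 91.9%).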

How the data were processed

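Poly(A)-selected, paired-end, stranded libraries are what the labels' protocols describe (TruSeq). The authors deposited whole-number counts per gene identifier in 3 columns (either strand, forward and reverse), and per the file headers unmapped, multimapping, featureless and ambiguous reads were counted apart. They stayed out of library sizes and tests. Unmapped, multimapping, featureless and ambiguous reads were 5.36% to 9.51%, 8.39% to 9.66%, 7.94% to 15.1% and 0.0777% to 0.113% of the Si libraries. The submitters' processing notes name TopHat2 and Bowtie2; versions, genome build, annotation and counter were not given in the sources used here. The reverse column was used as the sense count, since the opposite strand held 0.355% to 0.677% of stranded gene counts in the Si libraries. No replicate pair with Si agreed within sampling noise (chi-square per degree of freedom 5.55 to 19.5).

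Root and leaf were compared by edgeR 4.0.16 (R 4.3.3; TMM, filterByExpr, robust quasi-likelihood fit, two-sided, Benjamini-Hochberg over all tested genes), with standard errors derived from the F statistic. Signed values are root over leaf. Genes at 0 in an organ were set to 3 counts over its 3 libraries (0.0434 CPM in root, 0.0650 CPM in leaf), a limit that covers counting error only. Deviations of 1 library from the mean of the others of its group were taken on log2 (CPM + 0.05). Genes were ordered by the number in the identifier within its chromosome. Untested genes were passed over, and last blocks of fewer than 50 genes were dropped. On simulated counts (44023 genes) edgeR made 187 calls, 7 of them false, and found 80% of the 2-fold and 100% of the 4-fold changes put in. The simulation changed few genes, all at 1 CPM or more, evenly in both directions and with no difference in composition between organs. Its rates need not hold for the real comparison, where most genes were called.

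The genes and positions to be named followed a rule: the 2 largest differences in each direction at 10 CPM or more, any identifier with a name, the 3 longest runs (ties by the larger median difference) and the 3 richest blocks. Other runs were named after their values were seen, as were the low genes of leaf replicate 1. Comparison, lists and measures were chosen with earlier results of these data known. Of the identifiers, 2287 were found as symbols in RefSeq's gene table (assembly Da-Ae), 2 of them with a synonym. No product names or sequences came with it, so the planned marker, pathway, promoter and protein comparisons were not run, and none of its coordinates were used. Alternatives were limma-voom (limma 3.58.1), DESeq2 1.42.0, other scalings, filters, strand column, depth, size and run rules, a replicate block and the removal of each library.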

Additional observations from a re-analysis of the deposited data

Results flagged for a closer look

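The opposite-strand counts entered no comparison. With at least 20 opposite-strand reads in the library, 146 of 52962 genes had more reads on the opposite strand than on the sense strand in each of the 3 root Si libraries, and 152 genes in each of the 3 leaf Si libraries. They stand out because a signal appears in data outside the main measurement. The opposite strand as a whole held 0.499 ± 0.156% of stranded gene counts in root and 0.537 ± 0.161% in leaf (SD, n = 3; two-sided exact permutation p = 1). Which transcripts these reads come from was not tested.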

How the results depend on the processing

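Counts of called and preferring genes, runs and neighbour shares stayed within the set tolerance in 156 recomputed values and moved beyond it in 26. The tolerance was 1.5 times for counts, 10 points for the split between organs, and the exact 95% binomial interval of the reported value for neighbour shares. Leaving out each library in turn gave 14716 to 16379 genes higher in root, 14697 to 15526 higher in leaf, 133 to 151 root runs and 168 to 176 leaf runs. Without scaling factors 26786 genes were higher in root and 9345 in leaf (74.1% of calls in root), with 344 root and 97 leaf runs and next-neighbour shares of 22.1% and 15.4%. KCP1 and TR1 then turned to 0.31 and 0.48, and the median of all genes to 0.73. Upper quartile factors ended the call of KCP1 (−0.19) and gave neighbour shares of 17.8% in root and 17.0% in leaf. A size rule of log2 1 gave 10675 root-preferring and 10260 leaf-preferring genes, 499 and 454 runs, and shares of 25.7% and 26.2%. A rule of log2 3 gave 3801 root-preferring genes, 50 and 80 runs, and shares of 10.7% and 14.3%. The ratio of the neighbour share to its background stayed above 1 in all of these, from 1.07 to 1.26 in root and from 1.14 to 1.43 in leaf. Runs of at least 4 genes numbered 28 in root and 33 in leaf, and of at least 5 genes 3 and 9. The glmTreat counts were 8634 and 8682. These follow from the stricter or looser rules. Of the leaf runs, 91 of 168 kept all members leaf-preferring without scaling factors, 137 with upper quartile factors and 137 with a filter at 1 CPM in 3 libraries. Of the root runs 117 of 137 did so with that filter. The run medians moved most by limma-voom, to 4.76 for the C04 root run, −8.22 for the C02 leaf run and −7.77 for the A02 leaf run. DESeq2 gave 6.16 for the C04 run. The A07 root run had 4.66 with the 1 CPM filter, which dropped a member, and 4.33 without scaling factors. The C03 root run had 4.83 without leaf replicate 1 and 4.88 without scaling factors, and the C02 leaf run had −10.52 without root replicate 2. BnaC02g07810D of the C02 run missed the threshold with no low-count filter (edgeR adjusted p 0.0588) and by glmTreat (0.0667), and with the 1 CPM filter the run had 6 tested members. BnaC09g41810D, in a further C09 run, lost its preference in 11 settings, among them those without leaf replicate 3 or any 1 root replicate.

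Same-numbered root and leaf libraries correlated at 0.139, 0.083 and 0.150 in their deviations from the group means, and each correlated best with its own number (others −0.112 to −0.006), a hint from the data and not from the design. With a replicate block 16157 genes were higher in root and 15907 in leaf, with 6218 and 6397 organ-preferring genes. Promoter motifs could not be run.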

Other observations

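Among 26392 genes called in both treatments, 5 had opposite directions with and without Si, none of them 4-fold or more with Si. BnaC07g50920D had a log2 difference (root over leaf) of −1.0 (SE 0.31) with Si and 2.25 (SE 0.46) without, and BnaA02g30740D had 1.22 (SE 0.27) and −0.63 (SE 0.19). BnaA05g26040D had 1.02 (SE 0.33) and −1.38 (SE 0.36). The others, BnaA02g17670D and BnaC03g50570D, were higher in leaf with Si (−0.45 and −0.58) and in root without (0.88 and 0.91). None of the 5 passed for the interaction of organ and Si (edgeR adjusted p 0.958 to 1.00), and they were picked for their opposite signs.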
